A study of Mus musculus with 4 samples.

Results

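Plasmacytoid dendritic cells (pDCs) of the mouse spleen were described here in 4 single-cell RNA libraries, 1 per mouse. Members were chosen by measured transcripts: a kept cell had to hold at least 1 UMI (unique molecular identifier, 1 captured transcript molecule) of Siglech, at least 2 of the 4 genes Ccr9, Cox6a2, Klk1 and Runx2, and fewer than 3 of the 4 B cell genes Cd79a, Ebf1, Pax5 and Ms4a1. This gave 73 pDCs among 53945 kept cells, 37 of them in D3TA and 36 in WT spleens.

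The D3TA group was 2 mice heterozygous for a Ccnd3 allele that puts alanine in place of threonine at residue 283 of cyclin D3. The allele was made by CRISPR/Cas9, is constitutive and is carried by every tissue. The WT group was 2 mice without it, matched for age and sex. All were C57BL/6J females, the knock-ins aged 12 and 16 months. The study reports that D3TA mice of such age have a severe myeloproliferative disease. Ages could not be tied to single libraries, so age was not analysed.

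pDCs are the dendritic cells known for making large amounts of type I interferon when the endosomal receptors TLR7 and TLR9 meet nucleic acids. The E protein Tcf4 (also called E2-2) is the factor that sets and keeps their identity, with Irf8, Spib and Bcl11a, and they arise in the bone marrow from lymphoid and myeloid precursors that divide before they mature. Cyclin D3, with its kinases Cdk4 and Cdk6, drives passage into S phase by phosphorylating the RB proteins.

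Tcf4 binds E-boxes, so the 250 bases before the start of the rule genes were searched for the E-box words CACCTG and CAGGTG, which are each other's reverse complement and so cover both strands. RefSeq promoters on GRCm38.p6 were available for 4 of the 5 rule genes, and all but Runx2, that is 3 of these 4, held a word, against 17.2% of 32851 promoters. Of the 27 matched genes among 35 other pDC identity genes, 8 (29.6%) held one. A gene counted once if any of its promoters held a word, while the 17.2% is a share of single promoters. A match is only a run of letters and not a binding site. The promoters of Siglech (chr7:55767934-55768183, plus strand), Ccr9 (chr9:123766961-123767210, plus strand) and Klk1 (chr7:44225110-44225359, plus strand) are shown because they belong to the genes that chose the cells, and that of Bst2 (chr8:71537473-71537722, minus strand) because it is the classical surface marker the rule did not use. Capitals mark the E-box word.
Siglech: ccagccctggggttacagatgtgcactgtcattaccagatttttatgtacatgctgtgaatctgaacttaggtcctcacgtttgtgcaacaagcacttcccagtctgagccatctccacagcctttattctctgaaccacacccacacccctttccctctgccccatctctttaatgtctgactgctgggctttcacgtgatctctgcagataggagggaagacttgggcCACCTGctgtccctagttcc
Ccr9: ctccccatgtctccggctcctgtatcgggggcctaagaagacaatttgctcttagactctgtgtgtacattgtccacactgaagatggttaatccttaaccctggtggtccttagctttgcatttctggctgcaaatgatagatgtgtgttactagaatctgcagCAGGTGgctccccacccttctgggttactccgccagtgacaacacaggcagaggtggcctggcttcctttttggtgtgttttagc
Klk1: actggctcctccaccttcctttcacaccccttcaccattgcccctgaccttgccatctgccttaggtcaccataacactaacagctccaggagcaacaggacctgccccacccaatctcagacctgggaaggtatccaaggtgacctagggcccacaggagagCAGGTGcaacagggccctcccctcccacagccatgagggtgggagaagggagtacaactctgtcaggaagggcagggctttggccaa
Bst2: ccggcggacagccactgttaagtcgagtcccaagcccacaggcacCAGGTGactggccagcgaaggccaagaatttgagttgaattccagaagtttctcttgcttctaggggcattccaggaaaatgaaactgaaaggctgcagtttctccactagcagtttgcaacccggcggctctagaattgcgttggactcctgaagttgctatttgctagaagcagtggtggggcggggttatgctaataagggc
Of these 4 promoters, that of Siglech had the word nearest to the annotated start, 20 bases before it, and that of Bst2 had it farthest away, 205 bases before it.

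The libraries differed in depth and make-up. The median kept cell held 8111 and 7698 UMIs in D3TA replicates 1 and 2, and 1394 and 8009 UMIs in WT replicates 1 and 2. WT replicate 1 therefore stood apart, with 22619 kept cells against 7876 to 12500 in the other 3 libraries. The pDCs together held 326652 and 194285 UMIs in the D3TA libraries and 214115 and 233988 UMIs in the WT libraries. Libraries shared 32 to 127 barcodes per pair, and no pDC was among them.

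The label was checked against genes outside the rule. Tcf4 was detected in 73 of 73 members, Irf8 in 69, Bst2 (tetherin, the antigen of pDC-depleting antibodies) in 67, Ly6d (a surface protein of lymphoid precursors and pDCs) in 58 and Spib in 44. Other classes carried these genes too. In CPM (a gene's UMIs scaled to a total of 1000000), B cells had 343 to 889 of Tcf4, 750 to 1225 of Ly6d and 102 to 120 of Spib. Conventional dendritic cells of type 1 (cDC1) had 1148 to 1545 CPM of Irf8. The pDC levels given below were above these for Tcf4 and Irf8, and not in every library for Spib. Summed Ly6d in pDCs was also not above its B cell level in every library, being lower in WT replicate 1. Siglech, a sialic acid-binding lectin that signals through Tyrobp, had between 1 and 69 UMIs per member, with a median of 17. In T cells, which should lack it, Siglech had a UMI in 2 of 3036 and 0 of 1972 cells of the D3TA libraries and in 2 of 1107 and 2 of 1058 cells of the WT libraries, with median depths between 6699 and 8345 UMIs. The 0 of 1972 allows a share of up to 0.152% (3 cells of the total, counting error only). In B cells Siglech had a UMI in 8 of 3036 and 24 of 4977 cells of the D3TA libraries. In WT it was in 91 of 13376 and 35 of 5495 B cells. Among conventional dendritic cells of type 2 (cDC2) it was in 2 of 16 and 1 of 54 in D3TA and in 3 of 22 and 1 of 35 in WT.

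Not every member carried the full pattern. All 4 genes beside Siglech were found in 24 members, 3 in 18 and exactly 2 in 31. The members with exactly 2 had a median of 6805 UMIs and 3.82 Bst2 UMIs per 10000, and those with all 4 had 14652 UMIs and 33.3 Bst2 UMIs per 10000. Just outside the rule, 36 cells with Siglech had exactly 1 of the 4 genes and a median of 0.137 Bst2 UMIs per 10000. Another 13 cells met the rest of the rule but held 3 or more B cell genes, with 8.90 Bst2 UMIs per 10000. Fewer than 5 Siglech UMIs were found in 4 and 2 D3TA members and in 7 and 0 WT members of replicates 1 and 2.

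In 5 members, markers of 1 other cell class took at least 2% of UMIs, which goes against the label for these cells. One D3TA replicate 2 member had 19.9% of its 49866 UMIs in neutrophil markers and 1 Siglech UMI. D3TA replicate 1 held 2 neutrophil-rich members, with 2.95% and 6.07%, and 1 erythroid-rich member with 698 Hbb-bs UMIs. WT replicate 1 held 1 macrophage-rich member with 1484 Lyz2 UMIs. Without these cells 29 genes were called, 24 of them among the 71 genes called below, and only some of the lost calls are named. B and T cell markers take under 2% of UMIs even in B and T cells, so that limit does not reach them. D3TA replicate 1 held 1 member with 62.9 T cell marker UMIs per 10000 and 3 Siglech UMIs, and WT replicate 1 held 3 members with 46.3, 63.9 and 61.5 B cell marker UMIs per 10000, which also goes against the label. Without these members, which had at least 40 such UMIs per 10000, the 71 genes called below all stayed called, and 88 were called in all. Other members had little Irf8 and Ly6d, and neither limit reached them. WT replicate 1 held 1 with 1 Irf8 and 340 Cd74 UMIs. WT replicate 2 held 1 with 0 and 340, D3TA replicate 2 had 1 with 0 and 254, and D3TA replicate 1 had 1 with 0 and 58. Identity genes outside the rule took 140, 136, 101 and 104 UMIs per 10000 there, against library medians of 238, 297, 295 and 280. This also goes against the label. Each held 2 of the 4 genes beside Siglech. Scrublet marked 6 of the 13 members of D3TA replicate 2 as doublets, 0 of D3TA replicate 1, and 0 and 1 members of the WT libraries.

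pDCs were rare in all 4 spleens. They made up 0.192% of kept cells in D3TA replicate 1 (24 of 12500, 95% exact interval 0.123% to 0.286%) and 0.119% in D3TA replicate 2 (13 of 10950, 0.0632% to 0.203%). In WT they made up 0.0928% in replicate 1 (21 of 22619, 0.0575% to 0.142%) and 0.190% in replicate 2 (15 of 7876, 0.107% to 0.314%). The WT libraries lay on either side of D3TA replicate 2, so the groups overlapped.

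The mean share was 0.155% ± 0.0518 in D3TA and 0.142% ± 0.0690 in WT (SD, n = 2 each), a log2 ratio of 0.13. This was within the spread between mice (two-sided exact permutation test, p = 0.667, where 2 against 2 cannot go below 0.333). Pooled, 37 of 23450 D3TA cells (0.158%, 0.111% to 0.217%) and 36 of 30495 WT cells (0.118%, 0.0827% to 0.163%) were pDCs, with intervals that overlapped. Without the cells that Scrublet marked, D3TA replicate 2 had 7 of 10293 (0.0680%).

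The rule needs several detected genes and so depends on depth. With every cell thinned to 1000 UMIs, 10 of 11950 and 6 of 10430 cells met it in the D3TA libraries and 18 of 15203 and 12 of 7619 in the WT libraries. The means were then 0.0706% ± 0.0185 in D3TA and 0.138% ± 0.0277 in WT, both D3TA libraries were below both WT libraries, and the log2 ratio was -0.97 (exact permutation p = 0.333, the smallest possible). Thinning left out 550 and 520 cells of the D3TA libraries and 7416 and 257 cells of the WT libraries as too shallow. Neutrophil-rich cells also fill the denominator: among cells with under 5% of UMIs in neutrophil transcripts, pDCs were 36 of 15659 in D3TA and 36 of 30211 in WT. The mean share over libraries was then 0.234% ± 0.125 in D3TA and 0.143% ± 0.0701 in WT, a log2 ratio of these means of 0.71 (exact permutation p = 0.667). The share difference thus turned its direction under thinning and kept it with this denominator. Other choices also changed its sign. The log2 ratio was -0.08 without Scrublet doublets, -0.26 without the cycling members described below and 0.34 with fewer than 2 B cell genes allowed.

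**Figure D1:**
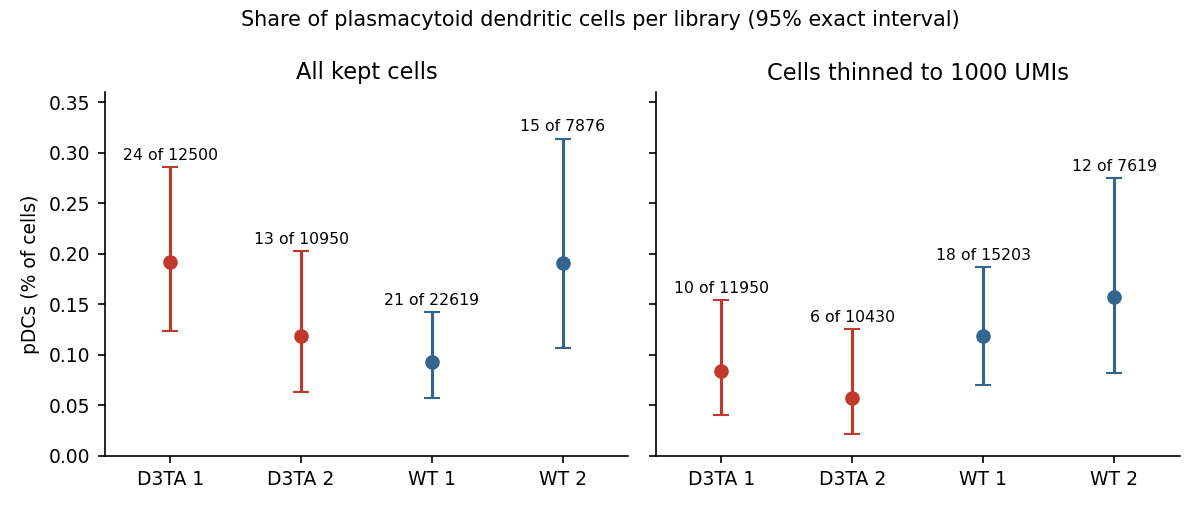
Share of pDCs (% of cells, vertical axis) in each library with its exact 95% interval, for all kept cells (left) and for cells thinned to 1000 UMIs (right); labels over the bars give pDCs of cells. The libraries overlap between D3TA and WT on the left, and both D3TA libraries lie below both WT libraries on the right, with overlapping intervals.

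Levels of the rule genes chose the cells and are given as a description. Siglech (chr7:55768178-55778925, GENCODE annotation of GRCm38) had 1203 and 1745 CPM in D3TA pDCs (a gene's UMIs scaled to a total of 1000000 per library) and 2144 and 2517 CPM in WT pDCs. Both D3TA libraries were below both WT libraries. Cox6a2, a cytochrome c oxidase subunit otherwise known from muscle, had 1323 and 592 CPM in D3TA pDCs and 892 and 684 CPM in WT pDCs, with overlapping groups. Ccr9, the receptor for the gut and thymus chemokine Ccl25, had 637 and 386 CPM in D3TA pDCs and 556 and 504 CPM in WT pDCs, also overlapping.

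Klk1, a kallikrein serine protease, had 165 and 103 CPM in D3TA pDCs and 556 and 308 CPM in WT pDCs. It was detected in 5 of 24 and 3 of 13 D3TA members and in 8 of 21 and 9 of 15 WT members. Both D3TA libraries were below both WT libraries in level. Runx2 had 2725 and 2743 CPM in D3TA pDCs and 3199 and 3218 CPM in WT pDCs. Pooled by genotype, Siglech was 1405 CPM (exact Poisson interval 1305 to 1511) in D3TA and 2339 CPM (2199 to 2485) in WT, and Klk1 142 CPM (112 to 178) in D3TA and 426 CPM (368 to 491) in WT. These intervals cover counting error only and not the spread between mice. The cycling D3TA members described below had 3.22 Siglech UMIs per 10000 when summed. In the summed members that were neither cycling nor low in ribosomal transcripts Siglech was at 22.5 UMIs per 10000 in D3TA and 22.5 in WT, and Klk1 at 2.81 in D3TA and 4.63 in WT.

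The 15 genes with the highest ratio of pDC level to the level in the other cells of the same library, taken as the lowest ratio over the 4 libraries, were led by Siglech at 554-fold, Klk1 at 429-fold, Cd300c at 389-fold, Grm8 at 274-fold, Cox6a2 at 261-fold, Paqr5 at 210-fold and Cyp7b1 at 200-fold. Pdzd4, Clec10a, Gria3, Arhgap32, Ppfia4, Ccr9, Bst2 and Ctsl followed, with Ctsl at 30.4-fold. Grm8 and Gria3 encode glutamate receptors known from neurons, and Cyp7b1 a hydroxylase of oxysterols. Cyp7b1 came from few cells: it was detected in 3 and 2 D3TA members and in 2 and 4 WT members. Some were also found in conventional dendritic cells: in the cDC2 of these libraries Cyp7b1 had 225 and 159 CPM in D3TA and 54.9 and 1.65 CPM in WT, Gria3 58.3 and 138 CPM in D3TA and 25.8 and 98.8 CPM in WT, and Ppfia4 83.3 and 85.9 CPM in D3TA and 113 and 90.5 CPM in WT. Clec10a had 133 and 112 CPM in cDC2 of D3TA and 0 and 54.3 CPM in cDC2 of WT. Since the cells were chosen by some of these genes, no test was made of these ratios.

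**Figure D2:**
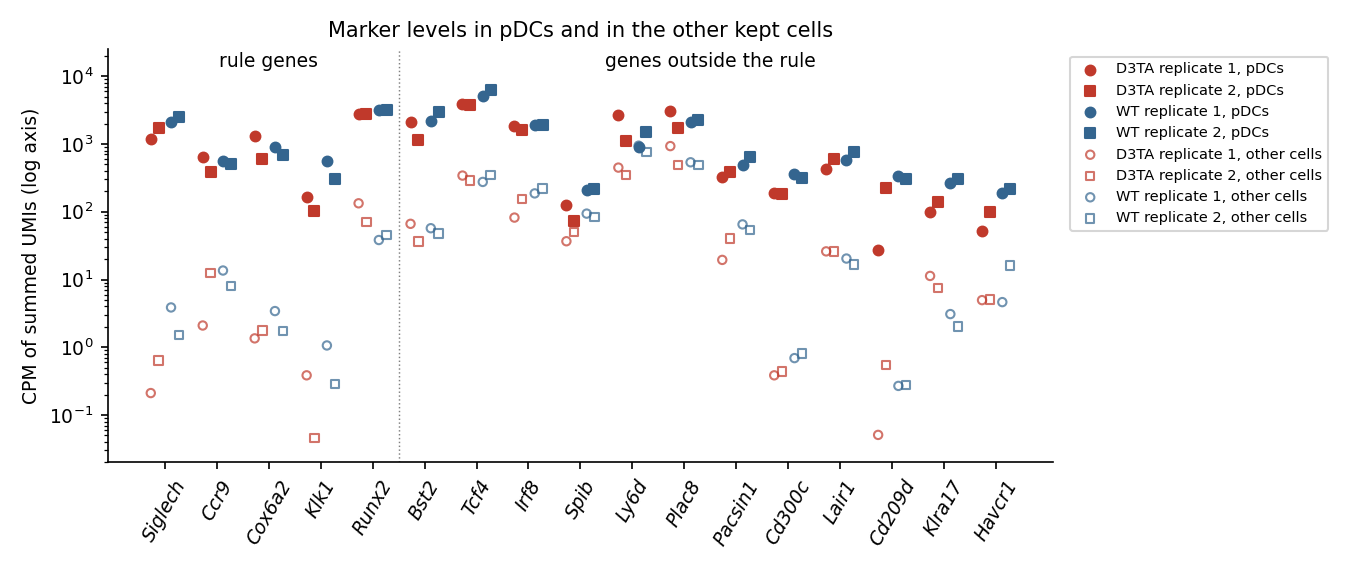
Level of rule genes (left of the dotted line) and of pDC genes outside the rule in CPM on a log axis, with filled points for pDCs and open points for all other kept cells of the same library. Siglech stands at 1203 to 2517 CPM in pDCs of the 4 libraries, and D3TA points are drawn left of WT points.

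Members differed among themselves in ways the rule did not use. S and G2/M phase transcripts (36 genes) made up at least 60 UMIs per 10000 in 9 members, called cycling here, a limit set after the values were seen. They were 7 of 24 and 2 of 13 members in D3TA replicates 1 and 2 and 0 of 21 and 0 of 15 in WT, and 0 of 36 WT members allows a share of up to 8.33% (3 cells of the total, counting error only, with the cells of both mice pooled). The cycling members had 67.8 to 177 such UMIs per 10000. Of the remaining members, the highest had 26.7 in D3TA and 34.7 in WT. In the other cells of the libraries, 20.9% and 13.2% were cycling by this limit in D3TA and 2.95% and 2.90% in WT.

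Cycling members were large, with a median of 25986 UMIs, and carried part of the pDC pattern. The 5 that had at least 5 Siglech UMIs and no other class above 2% were all in D3TA replicate 1. Each held Cox6a2 (7 to 48 UMIs), Ly6d (50 to 84), Runx2 (20 to 85), Tcf4 (33 to 81) and Irf8 (20 to 62). None held Klk1, 2 held Ccr9, and the invariant chain gene Cd74 had 1 to 39 UMIs. Summed over all 9 cycling members, Cd74 was at 4.01 UMIs per 10000, against sums of 62.5 in D3TA and 64.1 in WT members that were neither cycling nor low in ribosomal transcripts. In the cycling sum Tcf4 was at 17.9, Irf8 at 12.0 and Bst2 at 9.13, against 47.2, 22.4 and 26.4 in those D3TA members. Ly6d (21.3 against 23.0) and Cox6a2 (8.73 against 13.2) were closer. These sums weigh large members most, among them neutrophil-rich ones of 49866 and 38925 UMIs. As a median over members, Ly6d was higher in the 9 cycling members than in those D3TA members, at 27.4 against 18.4. The medians of Tcf4 (23.4 against 49.2), Irf8 (18.7 against 23.5), Bst2 (13.7 against 26.4) and Cox6a2 (10.7 against 14.0) were lower. Both cycling members of D3TA replicate 2 carried less of the pattern than the 5 above, with 1 and 2 Siglech UMIs and no Ly6d.

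Another 13 members, 4 and 3 in D3TA and 4 and 2 in WT, had under 4% of UMIs in ribosomal protein transcripts. Members that were neither this nor cycling had medians of 14.9% (D3TA) and 15.4% (WT). In the summed UMIs of the 13 low-ribosomal members Bst2 was at 2.89 UMIs per 10000 in D3TA and 2.25 in WT, and Actb, the cytoplasmic actin, at 3.53 in D3TA and 4.49 in WT. Tcf4 was at 116 in D3TA and 96.1 in WT, and the nuclear RNA Malat1 at 302 in D3TA and 360 in WT, above 47.2 and 53.2 for Tcf4 and 136 and 132 for Malat1 in the remaining 21 D3TA and 30 WT members. Mitochondrial transcripts in the low-ribosomal members were 0.471% to 9.64% of UMIs in D3TA and 0.604% to 7.70% in WT. This state occurred in all 4 libraries.

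**Figure D3:**
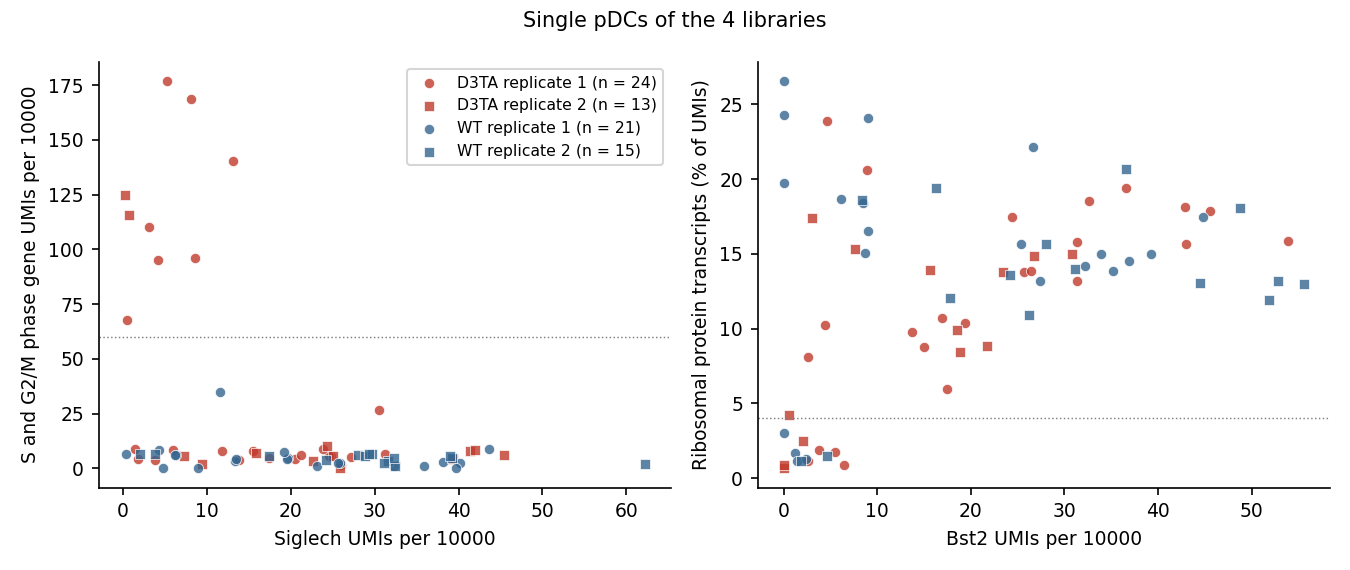
Each point is 1 pDC: Siglech UMIs per 10000 against S and G2/M phase gene UMIs per 10000 (left), and Bst2 UMIs per 10000 against the percentage of UMIs in ribosomal protein transcripts (right). The 9 members above the dotted line at 60 on the left are all from D3TA libraries, and the 13 members below the line at 4% on the right come from all 4.

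Summed over members, 4563 genes were tested between D3TA and WT pDCs. edgeR's quasi-likelihood test called 71 of them (1.56%) at an adjusted p under 0.05, of which 63 (1.38%) were higher and 8 (0.175%) lower in D3TA, and 447 had an unadjusted p under 0.05. The count depended strongly on which members entered. Without the 9 cycling members 5 genes were called (0.128% of 3895 tested): S100a9, S100a8, Camp and Ngp higher and Agbl1 lower. The same number was called when at least 5 Siglech UMIs were required. Leaving out WT replicate 1 gave 125 calls and leaving out D3TA replicate 2 gave 175. With D3TA replicate 1 left out it was 67, 33 of them shared with the 71, and with WT replicate 2 left out it was 105.

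Genes of S and G2/M phase rose in D3TA pDCs. Of 36 in the list, 24 were tested, 17 of these were among the 63 that rose and 0 fell, with a median log2 fold change of 4.55 beside 0.01 over all genes tested. With the 7 that had no UMI in WT set at their lower bound, the median was 3.67. A gene passed the filter on low counts here mainly through the D3TA libraries, so the count describes those that passed only. In D3TA replicate 2 the cycling members were 2, with 1 and 2 Siglech UMIs, the first of them neutrophil-rich. With at least 5 Siglech UMIs required, that library held 0 cycling members, 3 list genes were tested and 0 were called.

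Top2a, the topoisomerase that untangles replicated DNA, had 465 and 319 CPM in D3TA pDCs and 0 and 4.27 CPM in WT pDCs (log2 fold change 7.16 ± 0.66, adjusted p = 0.00087). Mki67, the proliferation antigen Ki-67, had 300.0 and 293 CPM in D3TA pDCs and no UMI in WT pDCs, which makes it at least 44.4-fold higher against a floor of 3 UMIs over the WT group. Pclaf, a PCNA-binding factor, was at least 53.0-fold higher on the same floor. Stmn1, which regulates microtubules, had 775 and 381 CPM in D3TA pDCs and 14.0 and 12.8 CPM in WT pDCs (5.38 ± 0.55, adjusted p = 0.0013). The chromatin protein Hmgb2 had 1497 and 1637 CPM in D3TA pDCs and 84.1 and 120 CPM in WT pDCs (3.92 ± 0.35, adjusted p = 0.00087). In each of these genes both D3TA libraries were above both WT libraries.

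Others that rose were the replication ligase Lig1, the kinetochore gene Knl1, the spindle genes Nusap1, Tuba1b and Tubb5, the histone genes Hist1h2ap, Hist1h1b, Hist1h1e and H2afx, the methyltransferase gene Ezh2 and Hmgn2. The AP-1 gene Jun rose as well, with 184 and 175 CPM in D3TA pDCs and 46.7 and 51.3 CPM in WT pDCs (1.85 ± 0.38, adjusted p = 0.042), the one call among 13 tested AP-1 and heat shock genes. Several of these calls depended on 1 library. Tuba1b, H2afx, Ezh2, Jun and Tubb5 did not pass without WT replicate 1 (adjusted p 0.054 to 0.50), Ezh2, Jun and Tubb5 without WT replicate 2 (0.079 to 0.17), Lig1, H2afx, Ezh2, Jun and Tubb5 without D3TA replicate 1 (0.062 to 0.25), and Nusap1 without D3TA replicate 2 (0.36). Without the members rich in another class, H2afx (adjusted p = 0.26), Hmgn2 (0.23), Jun (0.060) and Tubb5 (0.072) did not pass and Nusap1 and Hist1h1e had too few UMIs to test. Hmgn2 did not pass without Scrublet doublets either (0.084).

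The summed S and G2/M level was 5777 and 5106 CPM in D3TA pDCs and 388 and 509 CPM in WT pDCs. Cycling members held 46.2% and 39.0% of the pDC UMIs of D3TA replicates 1 and 2. Without them the sum was 603 and 583 CPM in D3TA, still above both WT libraries but with 0 of 3 tested list genes called. Without them, too, Tubb5 and Tuba1b had log2 fold changes of -0.26 and -0.12. The B cells of the same libraries stood at 2992 and 2084 CPM in D3TA and 1249 and 1150 CPM in WT.

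Neutrophil transcripts were higher in D3TA pDCs as well. Of 16 neutrophil markers, 8 were tested and 5 rose (S100a8, S100a9, Camp, Ngp and Wfdc21), with 0 falling, beside 1.38% higher among all genes tested. They passed the filter on low counts through the D3TA libraries, and 4 of the 8 had no UMI in WT, so the direction was set by which genes could be tested. S100a8, a subunit of the granulocyte protein calprotectin, had 2412 and 19101 CPM in D3TA pDCs and 23.4 and 4.27 CPM in WT pDCs (9.56 ± 1.10, adjusted p = 0.0030). It was detected in 24 of 24 and 13 of 13 D3TA members and in 4 of 21 and 1 of 15 WT members. Without the cycling members, which include the 3 neutrophil-rich ones, it was 859 and 785 CPM in D3TA (5.81, adjusted p = 1.7e-05).

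The same transcripts were present in cells of other classes. Summed over the 16 markers, pDCs had 10451 and 52619 CPM in D3TA and 93.4 and 34.2 CPM in WT. T cells had 38279 and 12444 CPM in D3TA and 514 and 153 CPM in WT, and B cells 25335 and 14201 CPM in D3TA and 776 and 388 CPM in WT. Per member, D3TA pDCs had a median of 27.7 and 21.2 neutrophil UMIs per 10000 and none had fewer than 10.3, while WT pDCs had a median of 0 in both libraries and at most 4.36. The part of RNA free in the droplets in this difference was not tested.

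**Figure D4:**
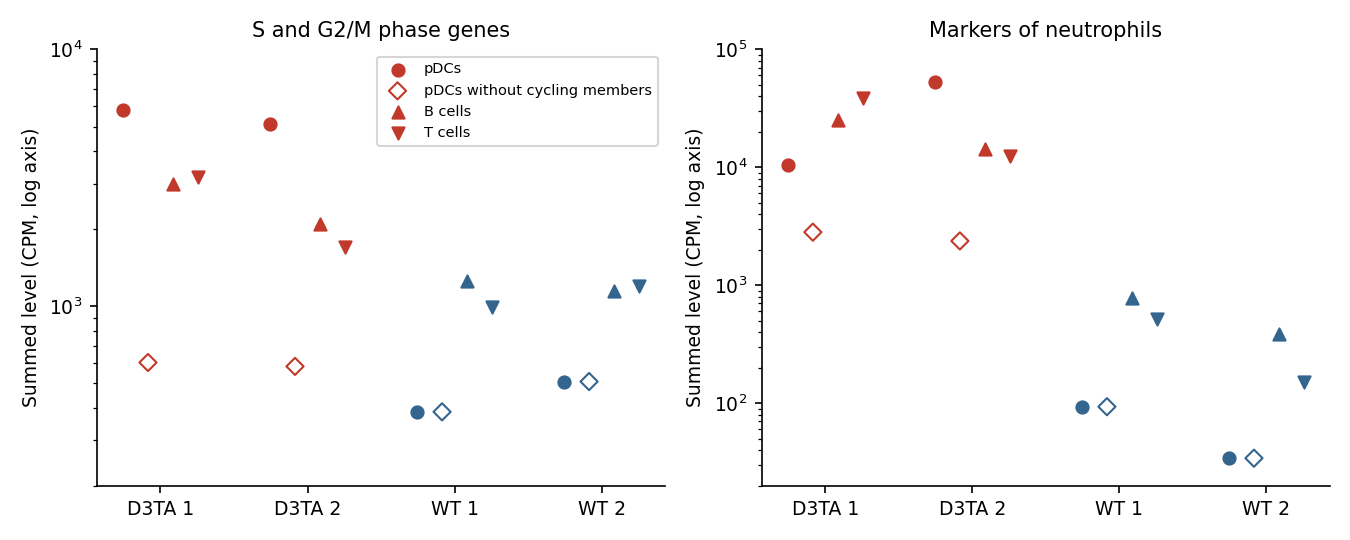
Summed CPM on a log axis of S and G2/M phase genes (left) and of neutrophil markers (right) in pDCs, pDCs without cycling members, B cells and T cells of each library. Without cycling members the S and G2/M sum of D3TA pDCs is 603 and 583 CPM, and neutrophil markers are higher in D3TA than in WT for all 3 cell classes.

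Named genes that fell in D3TA pDCs were Agbl1, Ncald, Fhit, Tmem176b, Tmem176a, Grm8 and Ccr2. Agbl1 (chr7:76229887-77124698, GENCODE annotation of GRCm38), a carboxypeptidase of the tubulin-deglutamylating family, had no UMI in either D3TA library and 103 and 60 UMIs (481 and 256 CPM) in the WT libraries. It was at least 63.2-fold lower in D3TA against a floor of 3 UMIs over the group (edgeR adjusted p = 0.0013). It was found in 8 of 21 and 5 of 15 WT members and in 0 of 24 and 0 of 13 D3TA members, and 3 WT members held 117 of its 163 UMIs.

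Agbl1 was not specific to pDCs. Other kept cells had it at 11.0 and 59.6 CPM in D3TA and at 66.3 and 72.3 CPM in WT. Among WT members that were neither cycling nor low in ribosomal transcripts, 8 of 17 with a Klk1 UMI had it and 1 of 13 without. Among the D3TA members of the same kind it was in 0 of 8 with Klk1 and 0 of 13 without. These counts pool the cells of both mice of a genotype, and detection depends on depth. The WT members with Klk1 held 11204 to 23128 UMIs, while several of those without held only 1126 to 4610. A link between Agbl1 and Klk1 was not tested.

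Ncald, a neuronal calcium sensor, had 141 and 180 CPM in D3TA pDCs and 570 and 662 CPM in WT pDCs (log2 fold change -1.97 ± 0.32, adjusted p = 0.021). Grm8, the metabotropic glutamate receptor named above, had 833 and 1081 CPM in D3TA pDCs and 2382 and 2769 CPM in WT pDCs (-1.45 ± 0.29, adjusted p = 0.038). The diadenosine triphosphate hydrolase Fhit had 64.3 and 108 CPM in D3TA pDCs and 355 and 393 CPM in WT pDCs (-2.17 ± 0.36, adjusted p = 0.022). In these genes, too, the groups did not overlap.

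The neighbouring membrane protein genes Tmem176b and Tmem176a were lower in D3TA as well. Tmem176b had 30.6 and 30.9 CPM in D3TA pDCs and 154 CPM in each WT library (-2.32 ± 0.41, adjusted p = 0.024). Tmem176a had 30.6 and 41.2 CPM in D3TA pDCs and 145 and 154 CPM in WT pDCs (-2.09 ± 0.41, adjusted p = 0.038). Their UMIs in WT lay in few cells: Tmem176b was detected in 8 of 24 and 2 of 13 D3TA members and in 2 of 21 and 4 of 15 WT members, and Tmem176a in 8 and 3 D3TA members and in 3 and 3 WT members. Without the members rich in another class Tmem176a did not pass (-1.27, adjusted p = 0.58) and Tmem176b had too few UMIs to test. Ccr2, the receptor for the monocyte chemokine Ccl2, had 45.9 and 87.5 CPM in D3TA pDCs and 262 and 218 CPM in WT pDCs (-1.91 ± 0.39, adjusted p = 0.042). Ccr2 was the one call among 13 tested chemokine receptor and homing genes. Without the cycling members Agbl1 stayed called (adjusted p = 0.00043), and the remaining 6 did not pass: Ncald had an adjusted p of 0.19, Fhit 0.13, Tmem176b 0.091, Tmem176a 0.13, Grm8 0.61 and Ccr2 0.55, all with negative fold changes. Of the 7 genes, Agbl1, Ncald and Fhit passed with any 1 library left out. Grm8 did not pass without WT replicate 1 (adjusted p = 0.12) or WT replicate 2 (0.53), Ccr2 without WT replicate 1 (0.054) or D3TA replicate 1 (0.12), Tmem176a without WT replicate 2 (0.091) or D3TA replicate 1 (0.10), and Tmem176b without D3TA replicate 1 (0.064). Without the members rich in another class Ccr2 did not pass (-1.68, adjusted p = 0.078). Without Scrublet doublets Ncald (adjusted p = 0.16), Grm8 (0.14), Tmem176b (0.093) and Tmem176a (0.080) did not pass. Dlg2, a synaptic scaffold gene, was next in order but did not pass (-2.08 ± 0.46, adjusted p = 0.061).

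**Figure D5:**
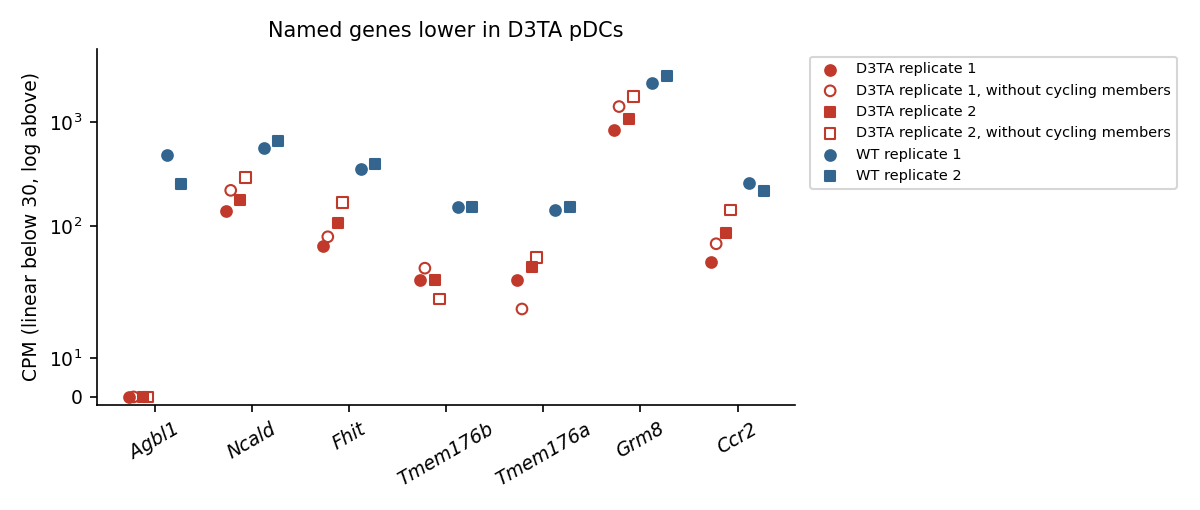
Level of the named genes that fell in D3TA pDCs, in CPM (linear below 30, log above), per library, with open symbols for D3TA pDCs without cycling members. Agbl1 is at 0 in both D3TA libraries, and for Grm8 leaving out cycling members moves D3TA toward WT.

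Of the 35 genes of pDC identity outside the rule, 34 were tested and none passed in either direction. Ly6d, Ly6c2 and Plac8 (3 genes) had a positive log2 fold change, the others a negative one, and the median was -0.50 beside 0.01 over all genes. In 18 of the 34 both D3TA libraries were below both WT libraries, a pattern that 18.8% of all genes tested showed, and in 1 both were above. Without cycling members the median was -0.02.

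Tcf4 had 3928 and 3747 CPM in D3TA pDCs and 5025 and 6240 CPM in WT pDCs (-0.57 ± 0.25, adjusted p = 0.50). Bst2 had 2118 and 1127 CPM in D3TA pDCs and 2162 and 2975 CPM in WT pDCs (-0.67 ± 0.35, adjusted p = 0.60). Spib had 126 and 72.1 CPM in D3TA pDCs and 210 and 218 CPM in WT pDCs (-1.08 ± 0.36, adjusted p = 0.29). Irf8 had 1843 and 1632 CPM in D3TA pDCs and 1915 and 1885 CPM in WT pDCs, while Ly6d (0.64 ± 0.43) and Plac8 (0.13 ± 0.32) had overlapping groups.

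The receptor genes Klra17, of the Ly49 family, and Havcr1, which encodes the phosphatidylserine receptor TIM-1, had the lowest adjusted p of this list without passing, with log2 fold changes of -1.29 ± 0.33 and -1.50 ± 0.39 and an adjusted p of 0.12 each (edgeR). Cd209d, a C-type lectin, had 27.6 and 227 CPM in D3TA pDCs and 332 and 299 CPM in WT pDCs, with a wide spread between the D3TA libraries (-1.45 ± 0.65, adjusted p = 0.51). Of 22 tested transcription factor genes of dendritic cells 0 were called, with a median of -0.23.

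The machinery of nucleic acid sensing was present in pDCs of every library without a call. Of 27 genes 16 were tested and 0 were called, with a median log2 fold change of -0.36. Ctsl and Ctsb, cathepsins that process endosomal TLRs, had log2 fold changes of -0.97 ± 0.30 and -0.37 ± 0.31, and the TLR chaperone Hsp90b1 0.07 ± 0.32. Tlr7, named after its values were seen, had 119 and 118 CPM in D3TA pDCs and 117 and 218 CPM in WT pDCs. Tlr9 had 3 and 1 UMIs in D3TA pDCs and 2 and 1 in WT pDCs, too few to test. The 5 interferon genes of the list (Ifnb1, Ifna1, Ifna2, Ifna4 and Ifna5) had no UMI in any pDC, and 3 UMIs over the group set a floor of 5.76 CPM in D3TA and 6.69 CPM in WT. Of 15 tested interferon receptor and response genes 0 were called, with a median of -0.17, and Ly6e, the highest after Bst2, had 1751 and 957 CPM in D3TA pDCs and 1275 and 1697 CPM in WT pDCs.

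None of the antigen presentation genes passed. All 10 tested genes of MHC class II and costimulation had a negative log2 fold change, with a median of -0.84, and 0 were called. In 8 of the 10 both D3TA libraries were below both WT libraries, as in 18.8% of all genes tested. Cd74 had 3340 and 3356 CPM in D3TA pDCs and 4979 and 6864 CPM in WT pDCs (-0.84 ± 0.26, adjusted p = 0.23), and H2-Aa had -0.85 ± 0.29. Without the cycling members, in which Cd74 was low, the list's median was -0.22.

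Genes of the ER secretory pathway had a median of 0.14 with 0 of 28 called, surface and inhibitory receptors a median of -0.32 with 0 of 19 called, and FLT3 and cytokine receptors a median of -0.12 with 0 of 17 called. Flt3, the receptor for the cytokine on which pDCs depend, had 254 and 396 CPM in D3TA pDCs and 243 and 303 CPM in WT pDCs. Of 6 tested apoptosis regulators 0 were called. Among them Bcl2 had 383 and 154 CPM in D3TA pDCs and 74.7 and 38.5 CPM in WT pDCs (2.27 ± 0.51, adjusted p = 0.064). It passed with DESeq2 (adjusted p = 0.039) and without the members rich in another class (0.0069), and not without D3TA replicate 1 (0.22) or WT replicate 2 (0.13). Of 5 tested lymphoid precursor genes 0 were called.

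The mutated gene and its partners were measured too. Ccnd3 had 205 and 247 CPM in D3TA pDCs and 313 and 120 CPM in WT pDCs (0.05 ± 0.43, adjusted p = 0.99), below its 412 CPM in D3TA and 484 CPM in WT in the other cells. The substitution does not remove the transcript, so this level does not check the genotype. Ccnd1 had 248 and 165 CPM in D3TA pDCs and 327 and 402 CPM in WT pDCs (-0.81 ± 0.34, adjusted p = 0.46). Ccnd2 had too few UMIs to test. Cdk6 had 260 and 417 CPM in D3TA pDCs and 164 and 141 CPM in WT pDCs (1.12 ± 0.35, adjusted p = 0.23), and Cdk4 1.46 ± 0.53 (adjusted p = 0.37). Of 12 tested genes of the cyclin D, CDK and RB pathway 0 were called, with a median of 0.36.

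Markers of other cell classes did not pass in either direction among those tested, apart from neutrophils and from Ccr2, which also stands in the list of transitional dendritic cell markers (1 of 5 tested fell). B cell, plasma cell, conventional dendritic cell, monocyte and macrophage and erythroid markers had 20 tested genes in all and 0 called. None of the T cell, NK cell or basophil markers had enough UMIs to test. The summed B cell markers were 147 and 376 CPM in D3TA pDCs and 425 and 244 CPM in WT pDCs, against 8646 to 15097 CPM in the B cells themselves.

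Whether the change in pDCs differed from that in all other kept cells of the same spleens was asked with an interaction term in edgeR. It called 242 of 16577 genes (1.46%), and 1122 had an unadjusted p under 0.05. DESeq2 called 108. Leaving out WT replicate 1 gave 98 calls, WT replicate 2 127, D3TA replicate 1 89 and D3TA replicate 2 235. Ncald fell in pDCs and not elsewhere (difference of -2.89 ± 0.34 on the log2 scale, adjusted p = 9.2e-14). The same held for Ccr2 (-3.60 ± 0.44, adjusted p = 2.5e-13), and both differences remained called without cycling members (-2.26 and -2.98). The fall within pDCs did not itself pass without cycling members for either gene, as given above. In the other cells the mean level was higher in D3TA than in WT, at 10.6 against 6.06 CPM for Ncald. For Ccr2 it was 46.9 against 15.7 CPM there, so each difference includes a rise elsewhere. Top2a (5.43 ± 0.73) and Stmn1 (3.37 ± 0.49) rose further in pDCs than elsewhere, and neither was called without cycling members.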

How the data were processed

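RNA of single spleen cells was measured in 4 libraries, 2 D3TA and 2 WT. The values deposited by the authors are raw UMI counts per gene and barcode. Per the file headers they come from Cell Ranger 7.0.1, and the submitters' processing notes name mm10; the treatment of intronic reads is not given in the sources used here. Kept cells had at least 500 UMIs, 250 genes and at most 10% mitochondrial UMIs. pDC UMIs were summed per library for a two-sided quasi-likelihood test (edgeR 4.0.16, TMM factors, filterByExpr, Benjamini-Hochberg over all genes tested). The interaction used the sums of pDCs and of all other kept cells, with the library as a block. Alternatives included DESeq2 1.42.0, other cell rules and leaving out each library. Doublets were kept; an alternative removed the top 6% of Scrublet scores (scanpy 1.11.5) per library, a share set by hand.

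The members, the 26 gene lists and the rules were chosen with earlier results of these data known. Named genes were the rule and identity genes, called genes with a mean of at least 50 CPM whose libraries did not overlap (up to 12 a direction, and up to 8 that were lower in pDCs than elsewhere), a direction under 8 filled by smallest p, the 3 highest tested and any called genes of each list, the cyclins D, Cdk4 and Cdk6, and the 15 highest ratios. In simulated counts, 72% of genes changed 4-fold and 15% of those changed 2-fold were found by the pDC fit (4211 genes, 2 of 89 calls false). The interaction fit found 12% and 0% (16290 genes, 1 of 13 calls false). Both simulations gave every gene the same dispersion and modelled no single members. In the data cycling members held 46.2% and 39.0% of the pDC UMIs of D3TA replicates 1 and 2, so these rates need not carry over. Near-identical and overlapping genes, such as the histone cluster, may share UMIs. Python 3.11.15 and R 4.3.3 were used.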

Additional observations from a re-analysis of the deposited data

Results flagged for a closer look

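The genes below were named and called in D3TA against WT pDCs, and their change in pDCs differed from that in the other cells of the same spleens by the interaction test of edgeR. Differences are given on the log2 scale as the change in pDCs minus the change elsewhere. Higher in pDCs beyond the other cells were Top2a by 5.43, Knl1 by 4.44, Lig1 by 4.16, S100a9 by 3.97, Cenpf by 3.62, S100a8 by 3.54, Stmn1 by 3.37, Hist1h1e by 2.98, Camp by 2.54 and Hmgb2 by 1.62. Lower beyond the other cells were Ccr2 at -3.60, Ncald at -2.89, Tmem176b at -2.43, Tmem176a at -2.21, Fhit at -1.44 and Grm8 at -1.25.

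Where 1 genotype had no UMI in pDCs, a size cannot be given and the adjusted p stands for the difference: 3.0e-16 for Agbl1, 2.0e-12 for Mki67, 1.5e-10 for Pclaf, 4.5e-08 for Hist1h1b, 2.2e-07 for Hist1h2ap, 0.00030 for Ube2c, 0.0050 for Nusap1, 0.0057 for Mcm5, 0.0068 for Kif11 and 0.044 for Rrm2.

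Of these 26 genes, 6 were called without the cycling members: Agbl1, Ccr2, Ncald, Tmem176a and Tmem176b with the same sign, and Hmgb2 with the opposite one (-1.48). Without the members rich in another class 14 were called, and S100a8, S100a9 and Camp were not (0.40, 0.91 and -0.32). DESeq2 called 13 and a minimum of 5 Siglech UMIs left 10.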

How the results depend on the processing

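The share's log2 ratio was -0.97 when cells were thinned to 1000 UMIs. Under the other alternatives it moved by less than the spread between mice, from -0.26 without cycling members to 0.71 over cells not rich in neutrophil transcripts, and from -0.29 to 0.74 when 1 library was left out. The 71 calls in pDCs became 6 with at least 3 of the 4 genes beside Siglech, 19 with at least 1, 5 with at least 5 Siglech UMIs, 29 without members rich in another class, 5 without cycling members, 333 with no filter on low counts and 7 without genes lower in pDCs than in the other cells. They were 67 to 175 when 1 library was left out. A replicate block gave 45 and a crossed one 173. The numbers are not shown to pair the mice, since same-numbered libraries deviated with a correlation of -0.159. Lyz2 in pDCs (log2 fold change -2.42 with all members, not passing) turned to 6.77 with fewer than 2 B cell genes allowed and ran from -4.68 without D3TA replicate 2 to 7.09 without WT replicate 1, which holds the macrophage-rich member, and Tuba1b and Tubb5 turned to -0.12 and -0.26 without cycling members. The 242 interaction calls became 128 with at least 3 of the 4 genes and 108 with DESeq2, and 89 to 235 when 1 library was left out, where a lone library is assumed to vary like the others. The limits for 5 Siglech UMIs, other classes, B and T cell markers, cycling and ribosomal transcripts and the crossed block were chosen after seeing the data. Where no value shows it, the cause was not tested. With 13 to 24 members per library and 194285 to 326652 UMIs, genes under about 50 CPM are not measured well, and 2 mice a group limit every test.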
